A study of Mus musculus with 3 samples.

Results

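The genes described here belong to families that build contacts between cells, in epithelium and elsewhere. These are the claudins and their partners at tight junctions, the cadherins with their catenins and nectins at adherens junctions, the desmosomal proteins, and the connexins of gap junctions. They were chosen by gene symbol and not by value: every array row whose current mouse symbol belongs to the claudin, digit-numbered cadherin (without the endothelial Cdh5), Tjp, Gja, Gjb, Gjc, desmoglein, desmocollin or plakophilin families, or to a list of 19 further junction genes. This gave 99 rows for 74 genes, out of 10698 named genes on the array. The rule also holds genes described below as mesenchymal (Cdh11) or vascular (Gja4, Gjc1 and Cdh13). Of the 74 genes, 39 had a ratio in every mouse and were tested, 10 had 2 mice, 11 had 1 mouse and 14 had none. The junction genes Cgn, F11r, Dsp, Crb3, Pkp2, Cldn16 and Cldn19 were not analysed here.

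Total RNA of whole kidney came from BALB/c mice with anti-GBM glomerulonephritis, in which antibody bound in the glomerulus sets off inflammation, on day 11 after injection of antibody against the glomerular basement membrane. Each of 3 arrays held RNA of 1 nephritic mouse labelled with Cy5 beside the same Cy3-labelled pool of kidney RNA from 5 normal BALB/c mice, with no dye swap. The pool counts as 1 control sample, so the test is of the ratio against 0 and leaves out the spread between normal mice and any dye bias. The sources used here give neither age nor sex, nor where the antibody came from. Values are log ratios in the deposited unit, whose base is not stated. With logarithms to base 2, a difference of 1 would be 2-fold, with natural logarithms 2.72-fold and with base 10 it would be 10-fold. A positive value was read as more RNA in nephritic kidney; the dyes named in the labels make this likely, though the deposited table does not say so. An exact 0, found in 26.7 to 32.4% of the rows of an array, was treated as missing.

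A tight junction is a belt of strands near the top of an epithelial cell that closes the gap between neighbours. Its claudins decide which ions may pass between cells: some seal, others form pores, and each nephron segment has its own set. Below it, cadherins join neighbouring cells through their outer parts and the actin skeleton through catenins, nectins start the contact with the adaptor afadin, desmosomes tie keratin filaments of adjacent cells together, and connexins form channels from cell to cell. In whole kidney, fewer cells of a type and less RNA per cell cannot be told apart.

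Upstream sequence is shown for the claudins Cldn3, Cldn4 and Cldn7 and for Epcam, a membrane protein of epithelial cells that binds Cldn7. Each of these genes rose in every mouse, as described below. Other junction genes that also rose in every mouse are not shown. Each run is the 250 bases before a gene start annotated by RefSeq (build GRCm38.p6), read 5′ to 3′ on the gene's strand. Capitals mark the 6-base E-box CAGGTG or its reverse complement CACCTG, the letters bound by Snail and Zeb repressors of epithelial genes. The Cldn7 window was picked of the 2 in the table because it holds matches.
Cldn4, chr5:134946935-134947184, minus strand: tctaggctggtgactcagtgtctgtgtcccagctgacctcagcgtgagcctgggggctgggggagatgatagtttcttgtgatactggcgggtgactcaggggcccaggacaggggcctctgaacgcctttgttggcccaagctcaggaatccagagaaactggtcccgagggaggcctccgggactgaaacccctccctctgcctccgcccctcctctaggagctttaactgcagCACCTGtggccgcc
Cldn3, chr5:134985964-134986213, plus strand: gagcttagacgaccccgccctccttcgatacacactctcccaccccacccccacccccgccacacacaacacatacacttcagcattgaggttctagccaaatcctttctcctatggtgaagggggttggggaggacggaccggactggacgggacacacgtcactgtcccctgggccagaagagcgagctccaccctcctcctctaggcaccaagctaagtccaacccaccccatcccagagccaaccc
Cldn7, chr11:69965171-69965420, plus strand: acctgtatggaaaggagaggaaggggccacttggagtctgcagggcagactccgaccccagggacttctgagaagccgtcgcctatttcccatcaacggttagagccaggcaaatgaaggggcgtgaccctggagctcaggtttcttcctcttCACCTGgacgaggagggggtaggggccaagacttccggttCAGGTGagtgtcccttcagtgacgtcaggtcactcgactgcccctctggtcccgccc
Epcam, chr17:87635729-87635978, plus strand: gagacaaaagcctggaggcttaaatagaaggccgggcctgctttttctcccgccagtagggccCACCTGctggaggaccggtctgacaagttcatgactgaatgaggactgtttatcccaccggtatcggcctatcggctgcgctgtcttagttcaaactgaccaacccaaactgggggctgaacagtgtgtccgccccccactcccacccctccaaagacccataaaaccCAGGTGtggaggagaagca
Cldn4 holds 1 match, starting 14 bases before the gene start. Cldn7 holds 2, at 97 and 57 bases before it, and the other Cldn7 window holds 0. Epcam holds 2, at 187 and 19 bases before the start, and these letters are not in the Cldn3 window. The E-box was present in 17.2% of all 32851 upstream windows and in at least 1 window of 19.4% of all 27025 genes, against 7 of the 25 tested junction genes with an entry. Those 7 comprise 3 of 8 genes that rose, 0 of 1 that fell and 4 of 16 that did not pass, the last being Tjp3, Ocln, Gjb1 and Gjb2. The 3 are Cldn4, Cldn7 and Epcam, all printed above. The other risers with an entry are Cldn3, Cldn1, Cdh6, Gja4 and Marveld2, and their windows hold 0 matches. A match is a string of letters and says nothing of whether a factor binds there. Cldn3 and Cldn4 are next to each other in RefSeq's order of protein-coding genes.

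Claudins gave the 3 highest means of the tested junction genes. Cldn3, Cldn4 and Cldn7, claudins of the distal nephron and collecting duct, rose in every mouse. Mouse 1 was the highest for Cldn3 and the lowest for Cldn4 and Cldn7. Cldn3 stood at 0.86 in mouse 1, 0.79 in mouse 2 and 0.63 in mouse 3. Cldn7 was at 0.66, 0.84 and 0.73 in the same order of mice. For Cldn4 the 3 mice read 0.64, 0.78 and 0.70. The 9 values lie between 0.63 and 0.86, so the genes overlap with each other and every mouse was well above 0. Their means were 0.76 ± 0.12 (SD, n = 3), 0.74 ± 0.0884 and 0.71 ± 0.0688, with limma adjusted p-values of 0.000398, 0.000345 and 0.000371. The Cldn3 mean would equal a rise of 1.69-fold, 2.14-fold or 5.75-fold for base 2, natural base or base 10. Of all 8449 tested features, 95.5% had a lower mean than Cldn3.

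The other claudins that rose were less even between mice. Cldn1, a sealing claudin of the parietal cells of Bowman's capsule and of many barrier epithelia, was at 0.77 in mouse 1 and at 0.45 and 0.43 in mice 2 and 3, a mean of 0.55 ± 0.188 (SD, n = 3; limma adjusted p = 0.00287). Cldn23 was at 0.67, 0.24 and 0.42 in mice 1, 2 and 3, a mean of 0.45 ± 0.216 (limma adjusted p = 0.0089). Mouse 1 was the highest for both genes, and all mice lay above 0. Cldn8, a claudin of the collecting duct that pairs with Cldn4, had no ratio in mouse 1 and was at 0.67 and 0.43 in mice 2 and 3. In the alternative that needs ratios on 2 arrays only, its mean of 0.55 passed (limma adjusted p = 0.00851).

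Cldn10, which forms ion pores in the proximal tubule and the thick ascending limb, was the claudin that fell. It stood at -0.29, -0.42 and -0.32 in mice 1, 2 and 3, a mean of -0.34 ± 0.0649 (SD, n = 3; limma adjusted p = 0.00708). A second row of the gene, left out of the test for want of mouse 3, read -0.38 and -0.79 in mice 1 and 2. Cldn2, the cation and water pore of the proximal tubule, was at -0.24, 0.11 and -0.093, so the mice lay on both sides of 0 and the mean of -0.075 did not pass (limma adjusted p = 0.505). Cldn5, a claudin of endothelium and podocytes, was below 0 in every mouse, from -0.21 to -0.12, and did not pass either (limma adjusted p = 0.0851). Cldn15, Cldn11 and the claudin-domain gene Cldnd1 had means of 0.047, -0.0061 and 0.072 and did not pass. In all, 5 of 11 tested claudins rose, 1 fell and 5 did not pass.

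The remaining genes with a claudin symbol, the claudin-domain gene Cldnd2 among them, were thinly measured. Cldn18 had 2 mice, at -0.060 and 0.0062. Cldn6, Cldn9, Cldn14, Cldn34d and Cldnd2 had 1 mouse each, with values between -0.37 for Cldn9 and 0.30 for Cldn34d. Cldn13, Cldn22, Cldn34b2, Cldn34c1 and Cldn34c4 were listed at 0 on all arrays.

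Across all tested junction genes, 15 of 39 rose, or 38.5%, where 20.8% of all tested features rose, and 3 of 39 fell, or 7.69%, where 22.3% of all tested features fell. The share called in either direction, 46.2%, was near the 43.1% of the whole table. The median log ratio of the 39 was 0.18, and it was 0.13, 0.17 and 0.21 in mice 1, 2 and 3. The median of all features was -0.0081. All mice were above 0 for 22 of the 39 genes (56.4%, against 33.3% of all features) and below 0 for 9 (23.1%, against 35.4%). Both sets of numbers describe these genes beside the table and are not a test of the list. They include genes of mesenchymal or vascular cells, among them the risers Cdh11, Gja4 and Gjc1, and Cdh13, which fell. With exact 0 values kept as ratios, Cldn3, Cldn4 and Cldn7 were the 3 of 74 junction genes that rose by limma, where 4.15% of features rose. In that setting 0 fell, where 3.3% of features fell; at an unadjusted p under 0.05 there were 14 higher and 5 lower. An unmoderated one-sample test called 0 features of the table, and 13 junction genes were higher and 5 lower at an unadjusted p under 0.05. The share of all features under that unadjusted limit is not given here, so these unadjusted counts stand without a baseline.

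**Figure D1:**
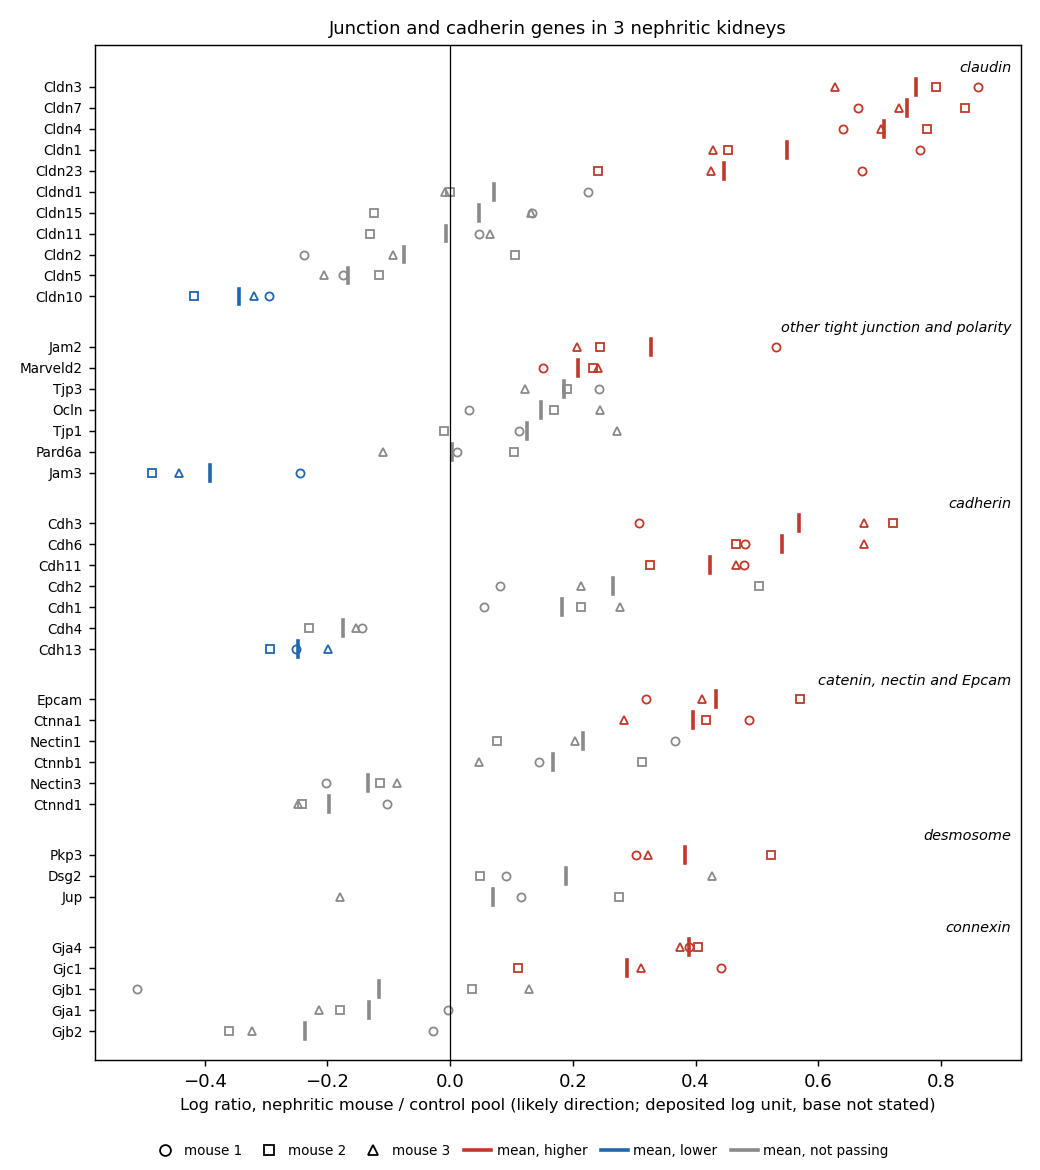
Log ratio of each tested junction and cadherin gene (horizontal axis, deposited log unit with unstated base) in the 3 nephritic mice (open symbols) with the mean as a bar, coloured by the limma call at an adjusted p of 0.05. Cldn3, Cldn7 and Cldn4 lie farthest to the right, with all mice at 0.63 or above, and Jam3 and Cldn10 farthest to the left by mean.

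**Figure D2:**
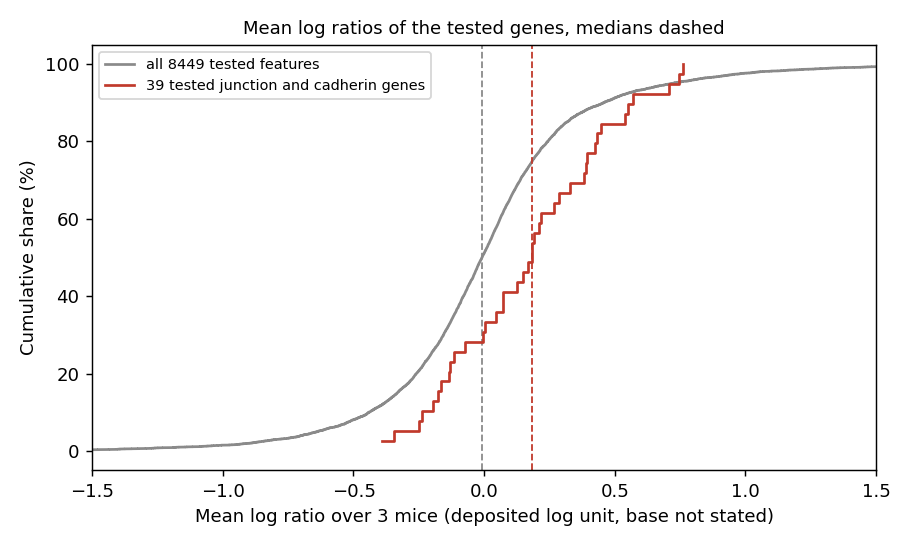
Cumulative share (vertical axis, percent) of mean log ratios over 3 mice (horizontal axis, deposited log unit; the axis ends leave out the outermost features) for the 39 tested junction and cadherin genes and all 8449 tested features, with medians dashed. The junction genes' curve lies to the right of the table's over most of its range, with medians of 0.18 and -0.0081, and ends at 0.76 while the table goes on.

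The other tight junction and polarity genes had means from -0.39 to 0.33. Marveld2, or tricellulin, the protein of corners where 3 cells meet, was at 0.15, 0.23 and 0.24 in mice 1, 2 and 3, a mean of 0.21 ± 0.0493 (SD, n = 3) that passed narrowly (limma adjusted p = 0.0423). It no longer passed without mouse 2 (0.20, adjusted p = 0.157), without mouse 3 (0.19, adjusted p = 0.268) and when ratios on 2 arrays sufficed (adjusted p = 0.0516). Occludin, Ocln, a strand protein and its neighbour in the gene order, was at 0.030, 0.17 and 0.24 and did not pass (limma adjusted p = 0.147). The scaffold proteins Tjp1 and Tjp3, which link strands to actin, had means of 0.12 ± 0.142 and 0.18 ± 0.0611 and did not pass. Tjp1 was just below 0 in mouse 2, at -0.0098, whereas Tjp3 lay between 0.12 and 0.24 in all mice. Pard6a, a subunit of the Par polarity complex, was at 0.0023 ± 0.107, and its partner Pard3 had a ratio of 0.35 in mouse 3 alone.

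Junctional adhesion molecules split. Jam3 was at -0.24 in mouse 1, -0.49 in mouse 2 and -0.44 in mouse 3, the lowest mean of the tested junction genes, -0.39 ± 0.129 (SD, n = 3; limma adjusted p = 0.00671). Without mouse 3 its adjusted p was 0.0502. Jam2 was at 0.53, 0.24 and 0.21, with mouse 1 the highest, and its mean of 0.33 ± 0.177 passed (limma adjusted p = 0.0205). Another Jam2 row, at 0.043 in mouse 1 and -0.091 in mouse 3, was not tested for want of mouse 2. With that row averaged in, the mean fell to 0.20 and the call was lost (adjusted p = 0.0821). Both genes are also made by endothelial and other cells. The 7 tested genes of this group comprise 2 that rose, 1 that fell and 4 that did not pass.

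Among cadherins, Cdh3, Cdh6 and Cdh11 rose. Cdh3, P-cadherin, was at 0.31 in mouse 1 and at 0.72 and 0.67 in mice 2 and 3, a mean of 0.57 ± 0.227 (SD, n = 3; limma adjusted p = 0.00365). Cdh6, K-cadherin, which is known from the developing proximal tubule, was at 0.48, 0.47 and 0.67, a mean of 0.54 ± 0.116 (limma adjusted p = 0.00155). Cdh11, a cadherin of mesenchymal cells, had means of 0.48, 0.32 and 0.47 over its rows and rose by 0.42 ± 0.0854 (limma adjusted p = 0.0034). Its rows had means of 0.67 and 0.18, and the lower row did not pass when tested singly. All mice were above 0 for Cdh3, Cdh6 and Cdh11.

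E-cadherin, Cdh1, the main cadherin of distal epithelium and the neighbour of Cdh3 in the gene order, was at 0.055, 0.21 and 0.28 in mice 1, 2 and 3. Its mean of 0.18 ± 0.114 (SD, n = 3) did not pass (limma adjusted p = 0.0887), though it did without mouse 1 (0.25, adjusted p = 0.0217). Without mouse 2 (0.17, adjusted p = 0.2547) or mouse 3 (0.13, adjusted p = 0.4525) it was farther from passing. N-cadherin, Cdh2, which proximal tubule cells carry, was at 0.081, 0.50 and 0.21, a mean of 0.27 ± 0.216 that did not pass (limma adjusted p = 0.0573). Cdh2 passed without mouse 1 (0.36, adjusted p = 0.00747) and without centring of the arrays. It did not pass without mouse 2 (0.15, adjusted p = 0.287) or mouse 3 (0.29, adjusted p = 0.139). Mouse 1 was the lowest of the 3 for both genes, and none of their values was below 0. Cdh2 overlaps Cdh3, Cdh6 and Cdh11, and differences between cadherins were not tested.

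Cdh13, an anchored cadherin of vessels, fell: it was at -0.25, -0.29 and -0.20 in mice 1, 2 and 3, a mean of -0.25 ± 0.0477 (SD, n = 3; limma adjusted p = 0.023). That call was lost without mouse 2 (-0.22, adjusted p = 0.108) and without mouse 3 (-0.27, adjusted p = 0.117). Cdh4, R-cadherin, lay between -0.23 and -0.14 and did not pass (limma adjusted p = 0.0725). Cdh16, the kidney-specific cadherin, had no ratio in mouse 1 and was at 0.049 and -0.16 in the others. Cdh15 had 2 mice, at -0.080 and 0.16. Cdh8 and Cdh20 had 1 mouse each, at 0.71 in mouse 2 and -0.58 in mouse 1, and Cdh9, Cdh10, Cdh17, Cdh22 and Cdh23 were listed at 0 on all arrays. Thus 3 of 7 tested cadherins rose, 1 fell and 3 did not pass, where 20.8% of all features rose and 22.3% fell.

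Behind the cadherins, alpha-catenin rose and the other catenins did not pass. Ctnna1, which couples the complex to actin, was at 0.49, 0.42 and 0.28 in mice 1, 2 and 3, a mean of 0.40 ± 0.104 (SD, n = 3; limma adjusted p = 0.00516). Ctnnb1, beta-catenin, which also carries the Wnt signal, was at 0.14, 0.31 and 0.047 and did not pass (limma adjusted p = 0.123). Another Ctnnb1 row had a ratio in mouse 1 alone, at -0.10, opposite in sign to the tested row there. Ctnnd1, p120-catenin, which holds cadherins at the membrane, was below 0 in every mouse, from -0.25 to -0.10, and did not pass as the mean of its rows (limma adjusted p = 0.0588). Epcam was at 0.32, 0.57 and 0.41, a mean of 0.43 ± 0.128 (limma adjusted p = 0.00431). Its values overlap those of Ctnna1 and lie below all 3 mice of Cldn7.

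Nectins showed no call. Nectin1 was above 0 in every mouse, from 0.077 to 0.37 (limma adjusted p = 0.0654), and Nectin3 below 0 in every mouse, from -0.20 to -0.087 (limma adjusted p = 0.153). Nectin2 had a ratio of 0.29 in mouse 3 alone, and the nectin adaptor Afdn was at 0.44 and 0.074 in mice 1 and 3. Of the 6 tested catenins and nectins with Epcam, 2 rose, 0 fell by limma and 4 did not pass. Among those 4, Nectin1 was higher and Ctnnd1 lower at an unadjusted p under 0.05. By limma call, 20.8% of all features rose and 22.3% fell.

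Desmosomal genes were represented by 3 tested members. Pkp3, a plakophilin of the desmosomal plaque, was at 0.30, 0.52 and 0.32 in mice 1, 2 and 3, a mean of 0.38 ± 0.122 (SD, n = 3; limma adjusted p = 0.00689). Dsg2, the desmoglein of simple epithelia, was at 0.091, 0.049 and 0.43, with mouse 3 far above the others, and did not pass (limma adjusted p = 0.139). Jup, or plakoglobin, lay on both sides of 0, at 0.11, 0.28 and -0.18. Dsc2, the matching desmocollin, was at 0.29 and 0.25 in mice 2 and 3 and did not pass where 2 arrays sufficed (limma adjusted p = 0.0591). Pkp1 had a ratio of -0.21 in mouse 2 alone, and Dsc1, Dsc3 and Pkp4 were listed at 0 on all arrays.

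Of the connexins, Gja4 and Gjc1 rose, and Gja5, with 2 mice, was called lower only where ratios on 2 arrays sufficed. Gja4, a connexin of arteriolar endothelium, was at 0.39, 0.40 and 0.37 in mice 1, 2 and 3, a mean of 0.39 ± 0.0153 (SD, n = 3; limma adjusted p = 0.00352). That mean averages 2 rows that disagree, at 0.70 ± 0.125 and 0.076 ± 0.112, so its small SD understates the spread of either row. Gjc1, a connexin of vascular smooth muscle, was at 0.44, 0.11 and 0.31 and passed (0.29 ± 0.166, limma adjusted p = 0.0298), but not without mouse 1 (0.21, adjusted p = 0.0539) or mouse 3 (0.28, adjusted p = 0.142). Gja5, of endothelium and renin cells, had no ratio in mouse 1 and was at -0.57 and -0.45 in mice 2 and 3. Where ratios on 2 arrays sufficed its mean of -0.51 passed (limma adjusted p = 0.00788). There 14 of 49 junction genes rose and 4 fell, where 18.8 and 19.7% of features did.

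The remaining connexins did not pass. Gjb2 was at -0.028 in mouse 1 and at -0.36 and -0.32 in mice 2 and 3, a mean of -0.24 ± 0.182 (SD, n = 3) (limma adjusted p = 0.0636). It passed without mouse 1 (-0.34, adjusted p = 0.00402), but not without mouse 2 (-0.18, adjusted p = 0.253) or mouse 3 (-0.19, adjusted p = 0.303). The Gjb2 values average 2 rows, one at 0.039, -0.71 and -0.47 in mice 1, 2 and 3 and the other at -0.095, -0.0071 and -0.17. Tested singly, neither row passed. Gjb1, best known from liver, was at -0.51 in mouse 1 but at 0.035 and 0.13 in the others, the widest spread of the tested junction genes (SD 0.345). Gja1, the most widely made connexin, lay between -0.21 and -0.0038 and did not pass (limma adjusted p = 0.19). Gjb6 was at 0.065 and -0.30 in mice 2 and 3, and Gjc3 was at 0.15 and 0.31 in mice 1 and 3. Gja10 had one row at -0.17 and -0.079 in mice 1 and 3 and another at 0.13 in mouse 3, so its sign in mouse 3 turned with the row. None of these genes passed where 2 arrays sufficed. Gjb5 was at 0.044 in mouse 3 alone, and Gja3 was listed at 0 on all arrays. In all, 2 of 5 tested connexins under the symbol rule rose and 0 fell by limma, where 20.8% and 22.3% of features did. Gjb2 was the 1 that was lower at an unadjusted p under 0.05.

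Several of these values rest on rows that disagree. Of 10 tested genes with 2 rows measured in every mouse, 5 had row means less than 0.2 apart, among them Epcam at 0.44 and 0.43, Gjc1 at 0.30 and 0.28 and Pkp3 at 0.44 and 0.33. Gja4 was farthest apart: one row read 0.58, 0.83 and 0.70 in mice 1, 2 and 3, the other 0.20, -0.018 and 0.047. The even Gja4 values given above are averages of those rows, which do not overlap. Cdh11 had one row at 0.54, 0.60 and 0.87 and another at 0.42, 0.050 and 0.059. Tested singly, the lower row of Gja4 (mean 0.076) and that of Cdh11 (mean 0.18) did not pass, so the rise of each gene rests on its higher row. For Ctnnd1, one row was at -0.26, -0.60 and -0.38, a fall that passed when rows were tested singly, and the other had a mean of 0.018. Jup had row means of 0.22 and -0.078 although both rows carry the same sequence accession. Which row of a pair reads its gene better was not tested. Further rows with fewer mice were left out of the test. Nectin3 had one at -0.20 and -0.32 in mice 2 and 3 and one at -0.41 in mouse 2. In mouse 3 alone, further rows of Ctnnd1, Gja4 and Gjb1 read -0.32, 0.50 and 0.23.

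**Figure D3:**
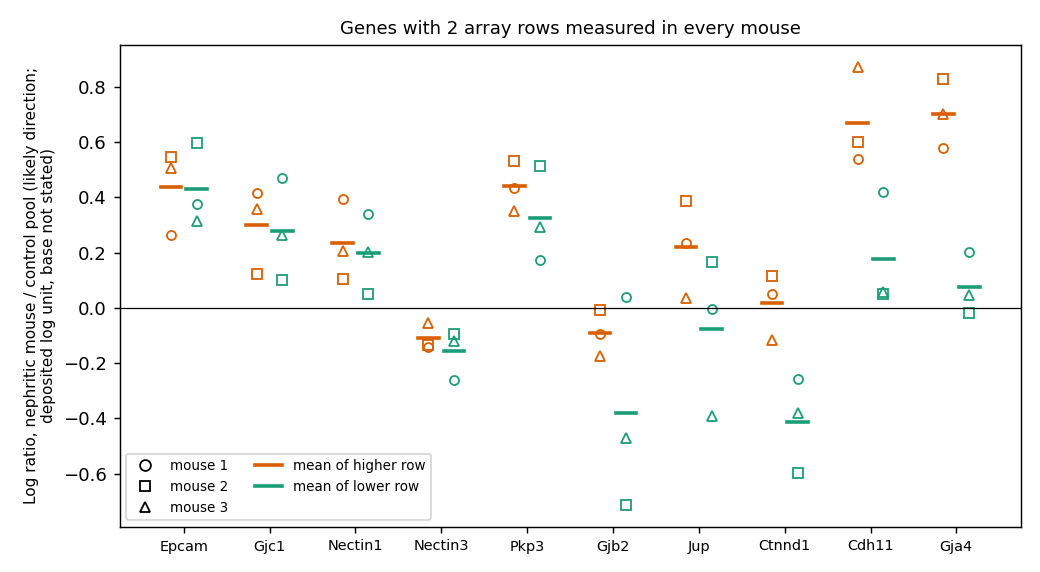
Log ratios (vertical axis, deposited log unit with unstated base) of the 10 tested genes with 2 array rows measured in all mice, ordered by the distance between row means; symbols are mice and bars are row means. The rows of Epcam, Gjc1, Nectin1, Nectin3 and Pkp3 lie less than 0.2 apart by mean, those of Gja4 lie 0.63 apart without overlap, and the Jup and Ctnnd1 rows have means on opposite sides of 0.

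Markers of the cells that carry these junctions moved in their own ways. Beside the marker counts here and in the next paragraphs, 20.8% of all features rose and 22.3% fell. The 6 tested of 10 proximal tubule markers all fell, with a median of -0.74 and medians from -0.80 to -0.67 in the mice. Beside them, Cldn10 fell, and Cldn2 and Gjb1 lay on both sides of 0. Cdh2 was above 0 in every mouse but did not pass, and Cdh6, known from the developing proximal tubule, rose, at 0.54. Of the other markers, Lrp2 had 2 mice, Kap was listed at 0 on all arrays, and Slc5a2 and Slc13a3 were not analysed here. Of 7 markers of the thick ascending limb and distal tubule, 6 were tested and 3 fell, among them the salt transporter Slc12a1 at -0.87 ± 0.24 (SD, n = 3); Umod, the defining marker, was listed at 0 on all arrays. Their part in the Cldn10 value was not tested.

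Collecting duct markers, beside the rise of Cldn3, Cldn4 and Cldn7, did not move as one. Of 9 tested, 2 rose and 3 fell: the sodium channel subunit Scnn1g was at 0.65 ± 0.192 and the water channel Aqp2 at 0.29 ± 0.13, whereas Aqp3, the anion exchanger Slc4a1 and Aqp4 were at -0.70 ± 0.295, -1.23 ± 0.191 and -1.38 ± 0.13 (SD, n = 3). The median of the 9 was 0.054, between 0.0095 and 0.080 in the mice. The means of the 3 claudins lie above those of all 9 markers, though Scnn1g, at 0.61, 0.48 and 0.86 in mice 1, 2 and 3, overlaps them. The 7 tested of 8 endothelial markers had a median of 0.11, with medians of 0.10, -0.014 and 0.22 in mice 1, 2 and 3. Of these Eng rose, at 0.43, and the other 6 did not pass, beside the rise of Gja4 and the fall of Cdh13; Cdh5 had 2 mice and was not tested.

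Fibroblast markers rose in 4 of 7, with medians of 1.34, 0.31 and 0.67 in mice 1, 2 and 3, beside the mesenchymal Cdh11. Leukocyte markers rose in all 4 tested of 8, with medians from 0.93 to 1.07; Cd3e and Cd79a were listed at 0 on all arrays, Itgax had 2 mice and Itgam was not analysed here. Urothelial and stratified epithelial markers had a median of 0.072, and 1 of 6 tested of 9 rose, the keratin Krt20 at 1.64. Podocyte markers were thin, with Nphs1 at -0.42 (a fall) and Ptpro at 0.20 (not passing) the 2 tested of 7; Podxl and Synpo were listed at 0 on all arrays. Muscle markers fell in all 3 tested of 7, with a median of -0.62. The part of any of these cell types in the junction values was not tested.

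**Figure D4:**
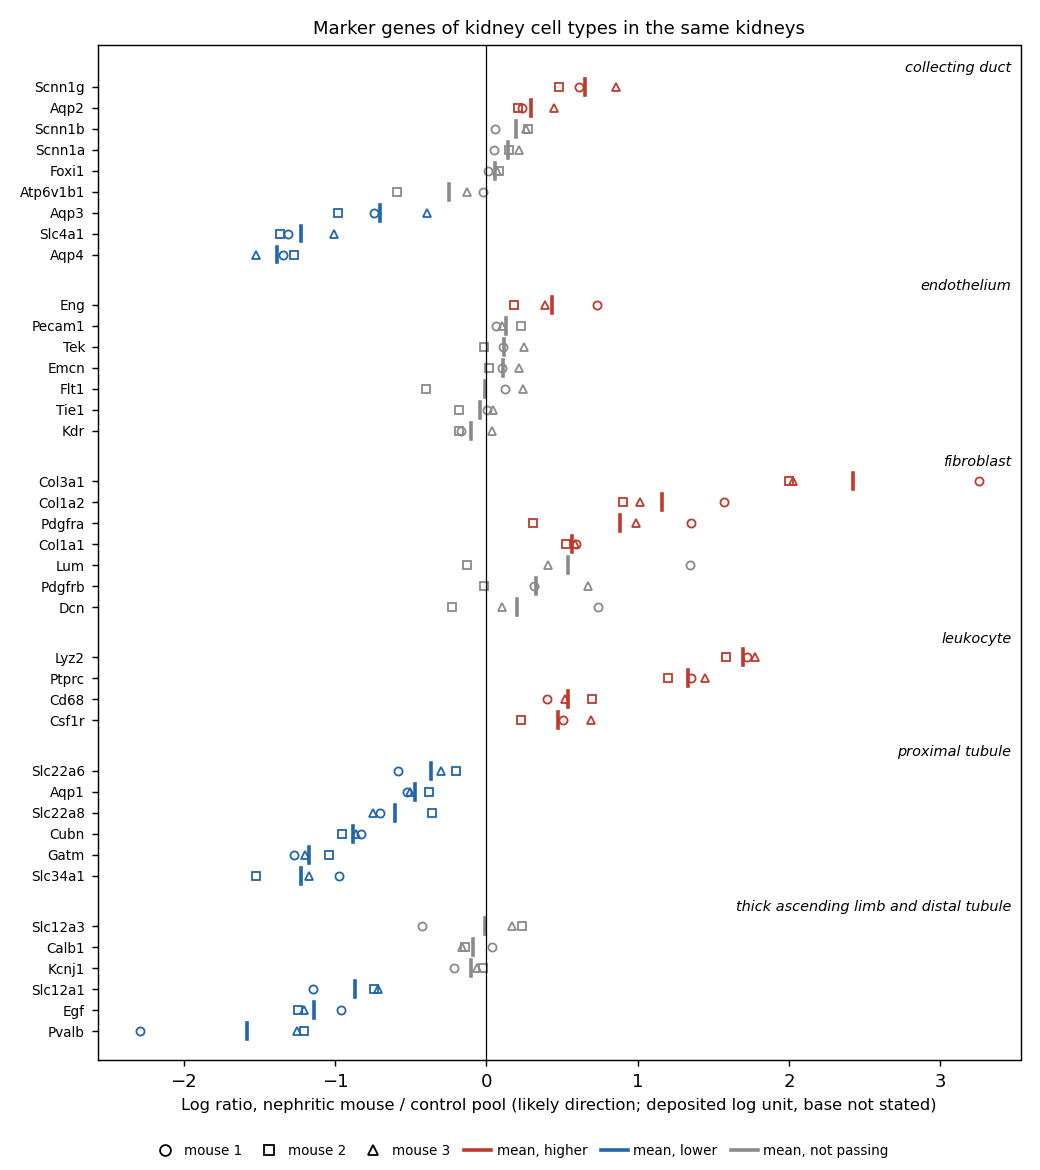
Log ratios (horizontal axis, deposited log unit with unstated base) of tested marker genes of 6 kidney cell types in the 3 mice (open symbols) with means as bars, coloured by limma call. All 6 proximal tubule markers lie below 0 and all 4 leukocyte markers above it, while collecting duct markers run from -1.38 to 0.65 by mean.

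Other genes of the same structures, from a list that the junction rule does not hold, were mixed. Of 122 listed genes 62 were tested; 18 rose and 8 fell, and their median was 0.081. Of all features, 20.8% rose and 22.3% fell. The highest were the keratins Krt19 and Krt18, filaments that desmosomes anchor, at 1.26 ± 0.209 and 1.04 ± 0.21 (SD, n = 3). Next came the adhesion molecule Cadm1 at 0.98 ± 0.147 and the epithelial transcription factor Klf4 at 0.94 ± 0.0736. At the low end were the channel protein Panx1 at -1.18 ± 0.457, the transcription factor Klf5 at -0.61 ± 0.0369 and the scaffold proteins Lin7c and Dlg3 at -0.38 ± 0.136 and -0.37 ± 0.093. All 8 passed, with limma adjusted p-values from 0.000136 to 0.00812.

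By structure, desmosome and keratin partners rose in 4 of 6, with 1 fall, Perp at -0.24. Shares of all features were 20.8% higher and 22.3% lower. Among 21 polarity and scaffold genes 5 were called higher and 2 lower, with a median of 0.0014, and the tight junction protein Cxadr, at 0.85 ± 0.167 (SD, n = 3), was their highest. Adherens junction partners rose in 5 of 17 and fell in 1. Of 6 tested protocadherins and distant cadherins, 0 rose by limma (0 also at an unadjusted p under 0.05) and Clstn1 fell, at -0.23. Panx1 and Gje1 were the 2 tested channel genes of this list, and Gje1, a connexin gene that the symbol rule leaves out, did not pass at 0.21.

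Transcription factors that set epithelial and mesenchymal states rose in 4 of 10 tested and fell in 2, against 20.8% and 22.3% of all features. Beside Klf4 the risers were Snai2 at 1.00, 0.35 and 0.66 in mice 1, 2 and 3, Snai1 at 0.37, 0.16 and 0.32, and Grhl2 at 0.19, 0.28 and 0.32. Snai1 and Snai2 are repressors of the Snail family, whose E-box letters are marked above. Grhl2 is known as an activator of junction genes. Binding to the sequences shown, and any part of these factors in the junction values, was not tested. Hnf4a, a factor of proximal tubule identity, fell together with Klf5 and was at -0.40, -0.33 and -0.25. Limma adjusted p-values of Snai2, Snai1, Grhl2 and Hnf4a were 0.00469, 0.0197, 0.02 and 0.00935. Zeb2 was at 0.26 ± 0.232 (SD, n = 3) and did not pass, and these factors, Perp, Cxadr and Clstn1 were named after their values were seen.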

How the data were processed

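The table the authors deposited has 16281 rows of log ratios for each array; the sources used here do not give its scanner, normalization, log base or sign. Exact 0 was taken as missing. Names came from the platform annotation, updated by gene identifier through a RefSeq table of GRCm38.p6; 13738 rows had 1 symbol (13694 in that table), 52 several and 2491 none. Each array was centred on the median of its ratios, rows with a ratio on all 3 arrays were averaged by gene, and 8449 features were tested with limma 3.58.1 in R 4.3.3 (lmFit with an intercept, eBayes with a prior SD of 0.134 on 4.85 degrees of freedom beside 2 residual, two-sided, Benjamini-Hochberg at 0.05). The labels name a different mouse for each array, so n counts mice. An exact sign-flip test of 3 mice cannot go below p = 0.25 and was not used. Precision is limited by how few arrays there are, and brightness over background was not used here.

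Junction genes, partner and marker lists, tests and alternatives were chosen with earlier results of these data known. Named were all tested genes that passed (at most 20 highest and 20 lowest), textbook junction genes whatever their value, and the 4 highest and 4 lowest passing partners; others were named after their values were seen. On simulated data of 8449 features, 200 of them changed, with no spread in the pool, the script recovered 79% of shifts of 0.5 and 100% of shifts of 1, with 5.29% false among 189 calls. Alternatives were no centring, scaling, rows tested singly, ratios on 2 arrays, a robust prior, array weights, no moderation, removal of the 20% of features whose SD was lowest, exact 0 kept and each mouse left out; averaging in partly missing rows was added after seeing the data.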

Additional observations from a re-analysis of the deposited data

How the results depend on the processing

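Of the 18 calls among junction genes, 14 held with each mouse left out in turn and 13 in all 11 alternatives other than the unmoderated test and exact 0 kept (Cldn1, Cldn3, Cldn4, Cldn7, Cldn10, Cldn23, Cdh3, Cdh6, Cdh11, Ctnna1, Epcam, Gja4 and Pkp3, of which those below the SD limit were not tested where it was set). Where rows were tested singly, a gene counted as held if its row of lowest p passed; 1 row each of Gja4 and Cdh11 did not. None of the 18 changed sign. Leaving out a mouse gave 13 to 17 junction genes higher and 1 to 5 lower, and 11 to 25 partners higher and 5 to 8 lower. The lowest counts came without mouse 3. Without mouse 1, 5 junction genes gained a call (Cdh1, Cdh2, Ocln, Ctnnd1 and Gjb2) and 1 lost it (Gjc1). Leaving out mouse 2 or mouse 3 gained 0. With exact 0 kept, junction genes numbered 3 higher and 0 lower and partners 4 higher and 1 lower, and the junction genes' median moved from 0.18 to 0.022 (0.17 to 0.19 with a mouse left out), with 74 genes tested in place of 39. The unmoderated test called 0 in every one of these counts, and its smallest adjusted p over the table was 0.0541. Unadjusted, it had 14 partners higher and 11 lower at p under 0.05, with no share of all features given beside them. Array weights gave 22 junction genes higher and 8 lower, with 12 calls gained, and 27 partners higher and 14 lower. Leaving out features of low SD gave 1 junction gene and 5 partners lower, from 31 and 57 tested genes. The cause of these shifts was not tested. For array weights, low SD and each mouse left out, the share of all features called is not given here. Whether these counts moved with the whole table was not tested. No centring moved the median of all features by 0.016.

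Signs turned for 6 genes with no call. With a mouse left out, Cldn11 ran from -0.042 to 0.056, Pard6a from -0.049 (without mouse 2; -0.0023 without mouse 1) to 0.058, Jup from -0.032 to 0.20, Gjb1 from -0.24 to 0.081, Cldn2 from -0.16 to 0.0066 and Cldnd1 from -0.0045 to 0.11. With array weights Cldn11 was at 0.033, Pard6a at -0.066, Jup at -0.083 and Gjb1 at 0.059. Cldn11 was at 0.010 both without centring and with exact 0 kept, and Pard6a at -0.00093 with arrays scaled. No paired analysis was possible because the labels give 1 group of mice against 1 pool.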
